A study of Mus musculus with 9 samples.

Results

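The genes described here are 46 genes of DNA replication licensing and of the replication fork, measured by RNA-seq in 4T1 cells, an established mouse mammary carcinoma line. They were taken by gene name from a table of 52306 named genes, and every one of the 46 was found. By role they are 6 origin recognition genes, 3 genes of licensing control, 6 MCM helicase genes, 8 genes of helicase activation and origin firing, 6 of the sliding clamp and its loader, 9 of the polymerases and primase, 2 of lagging-strand processing, 3 of single-strand binding and 3 of fork protection. All cells were sampled at day 2, in 9 libraries. The first group of 3 libraries comes from cells given MK1775, also called adavosertib, which inhibits the kinase Wee1. A second group of 3 libraries carries the label Wee1 siRNA, a small interfering RNA meant to lower the Wee1 transcript. The last 3 libraries are labelled only as a negative control (NC), and both treated groups are set against them. The sources used here do not give the dose of MK1775, the siRNA sequence or what the NC cells received. They also leave unsaid if the numbering of the siRNA libraries stands for replicates or for different siRNAs. Whether replicates came from separate cultures is likewise not stated, so the p-values rest on the spread among these samples alone, and that spread may be technical.

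DNA replication starts at origins that are licensed in G1. The origin recognition complex (Orc1 to Orc6), Cdc6 and Cdt1 load the MCM helicase onto DNA, and geminin (Gmnn) blocks Cdt1 once S phase has begun, so that no origin fires again. At the start of S phase the Dbf4-dependent kinase Cdc7, together with cyclin-dependent kinases, turns the MCM ring into the active helicase by adding Cdc45 and the GINS complex. Polymerases alpha, delta and epsilon then copy the DNA. The ring-shaped clamp PCNA, which the RFC complex loads, holds polymerases delta and epsilon. Wee1 phosphorylates and restrains the cyclin-dependent kinases Cdk1 and Cdk2, and so limits both mitotic entry and origin firing. Many of these genes are transcribed at the G1/S transition under E2F transcription factors.

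Expression was given as FPKM, a count of fragments divided by transcript length and by the size of the library. FPKM gives no read totals, and low values did not fall on common steps, so the depth is unknown and precision rests on the spread between libraries. Wee1 (chr7:109721253-109742700, plus strand, GRCm39) was at 15.0, 14.7 and 16.8 FPKM with MK1775, 13.1, 15.1 and 15.3 FPKM in the libraries labelled Wee1 siRNA and 11.5, 10.5 and 11 FPKM in NC. Every treated value lay above every NC value, with log2 differences of 0.46 with MK1775 (SE 0.0784, limma adjusted p = 0.00226) and 0.37 in the siRNA-labelled libraries (SE 0.0784, adjusted p = 0.00633). The targeted transcript was thus not lower in the second group, which is called here by its label, so its differences from NC are those of libraries with that label. Of 10 epithelial markers 7 averaged at least 1 FPKM over the libraries, and the sum over all 10 was 792 to 804 FPKM with MK1775, 735 to 738 FPKM in the siRNA-labelled libraries and 451 to 517 FPKM in NC, with Krt18 highest and Epcam, Cldn4 and Esrp1 under 1 FPKM. Krt18 and Krt8 make up most of that sum. Of the 7 that averaged at least 1 FPKM, Grhl2 did so only through the treated libraries. It was at 1.83, 2.10 and 1.89 FPKM with MK1775 and 2.03, 1.89 and 1.90 FPKM in the siRNA-labelled libraries. In NC it was at 0.0197, 0.0347 and 0.00608 FPKM. Over all genes tested, 17.9% rose and 23.1% fell with MK1775, and 19.6% rose and 23.2% fell in the siRNA-labelled libraries. Of the 7 markers tested 4 rose and 2 fell in each treated group. The falls were in Krt7, at 14.4, 16.1 and 11.2 FPKM with MK1775, 10.3, 13.5 and 18.3 FPKM in the siRNA-labelled libraries and 23.7, 20.8 and 28.8 FPKM in NC, and in Cldn3, at 9.84, 10.4 and 9.95 FPKM with MK1775, 11.1, 9.28 and 9.46 FPKM in the siRNA-labelled libraries and 16.9, 19.2 and 18.5 FPKM in NC. Of 10 immune markers 5 were at 0 in all libraries, 2 averaged at least 1 FPKM, and the sum over all 10 was 5.44 to 7.80, 6.78 to 8.64 and 8.72 to 10.1 FPKM in the same order of groups. The 9 stromal markers, of which 1 averaged at least 1 FPKM, summed to 2.19 to 2.78, 2.58 to 3.17 and 2.57 to 3.76 FPKM, and the 5 blood markers, none of which did, to 0.713 to 0.848, 1.04 to 1.08 and 0.0448 to 0.0951 FPKM. Their part in the results below was not tested.

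With MK1775 more of these 46 replication genes fell than rose against NC. The 46 were chosen with earlier results of these data known. In the pair of lists of other replication genes, given below, the median log2 differences with MK1775 were -0.028 and -0.0038. Pold2, a subunit of polymerase delta, fell by 1.13 on the log2 scale and Rfc5, a subunit of the clamp loader, by 0.88. The licensing factor Cdc6 and the clamp Pcna fell with them, by 0.87 and 0.57. Of the 46 genes, all of which passed the minimum of 1 FPKM and were tested, 26 (56.5%) fell at an adjusted p under 0.05, against 23.1% of the 10453 genes tested. Another 3 genes (6.52%) rose, against 17.9% of all genes tested, and these were the clamp loader subunit Rfc4, the primase subunit Prim1 and the polymerase delta subunit Pold3. The other 17 were not called. In 30 of the 46 genes all MK1775 values lay below all NC values, which held for 30.1% of all genes tested, and in 5 all lay above, which held for 23.8%; together this was 54% of all genes tested. The median log2 difference was -0.32 over the 46 genes and -0.04 over all genes tested. Summed over the 46 genes, FPKM was 1299 to 1322 per library with MK1775 and 1602 to 1659 in NC. With transcripts of the same loci that carry no gene name added, it was 1392 to 1402 and 1663 to 1733. In bulk RNA, fewer replicating cells and less transcript per cell cannot be told apart.

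The libraries labelled Wee1 siRNA, set against the same NC libraries, gave 24 falls (52.2% of the 46 genes, against 23.2% of all genes tested) and 4 rises (8.70%, against 19.6%). The rises were in Rfc4, Prim1, Pold3 and the helicase gene Mcm4. The median log2 difference was -0.26 over the 46 genes and -0.01 over all genes tested. In 27 genes all siRNA-labelled values lay below all NC values, against 28.1% of all genes tested, and in 4 all lay above, against 24.1%; together this was 52.2% of all genes tested. The summed FPKM was 1237 to 1317 per library in this group and 1602 to 1659 in NC. With transcripts of the same loci that carry no gene name added, it was 1368 to 1421 and 1663 to 1733. The count of rises came to 1 without NC replicate 3 and to 1 without siRNA-labelled replicate 3. Because both comparisons share NC, their values are given side by side and not as independent evidence.

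**Figure D1:**
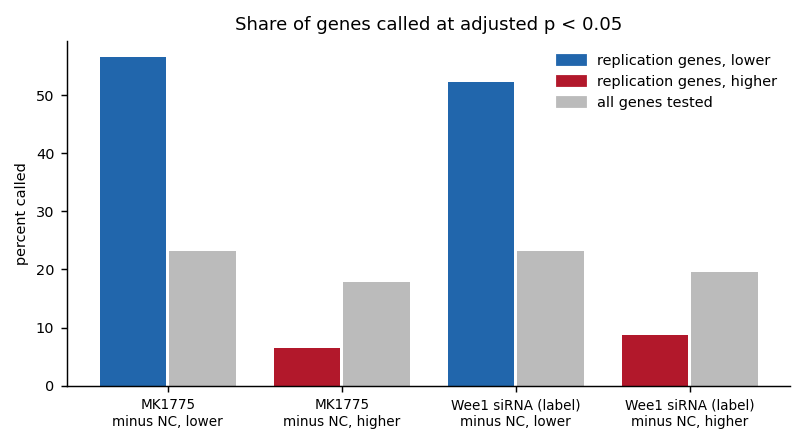
Percentage of genes called at an adjusted p under 0.05 (vertical axis) for the replication genes (blue, lower; red, higher) and for all genes tested (grey), for MK1775 and for the libraries labelled Wee1 siRNA, each against NC. Falls took 56.5% and 52.2% of the replication genes, against 23.1% and 23.2% of all genes tested, and rises took 6.52% and 8.70%, against 17.9% and 19.6%.

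**Figure D2:**
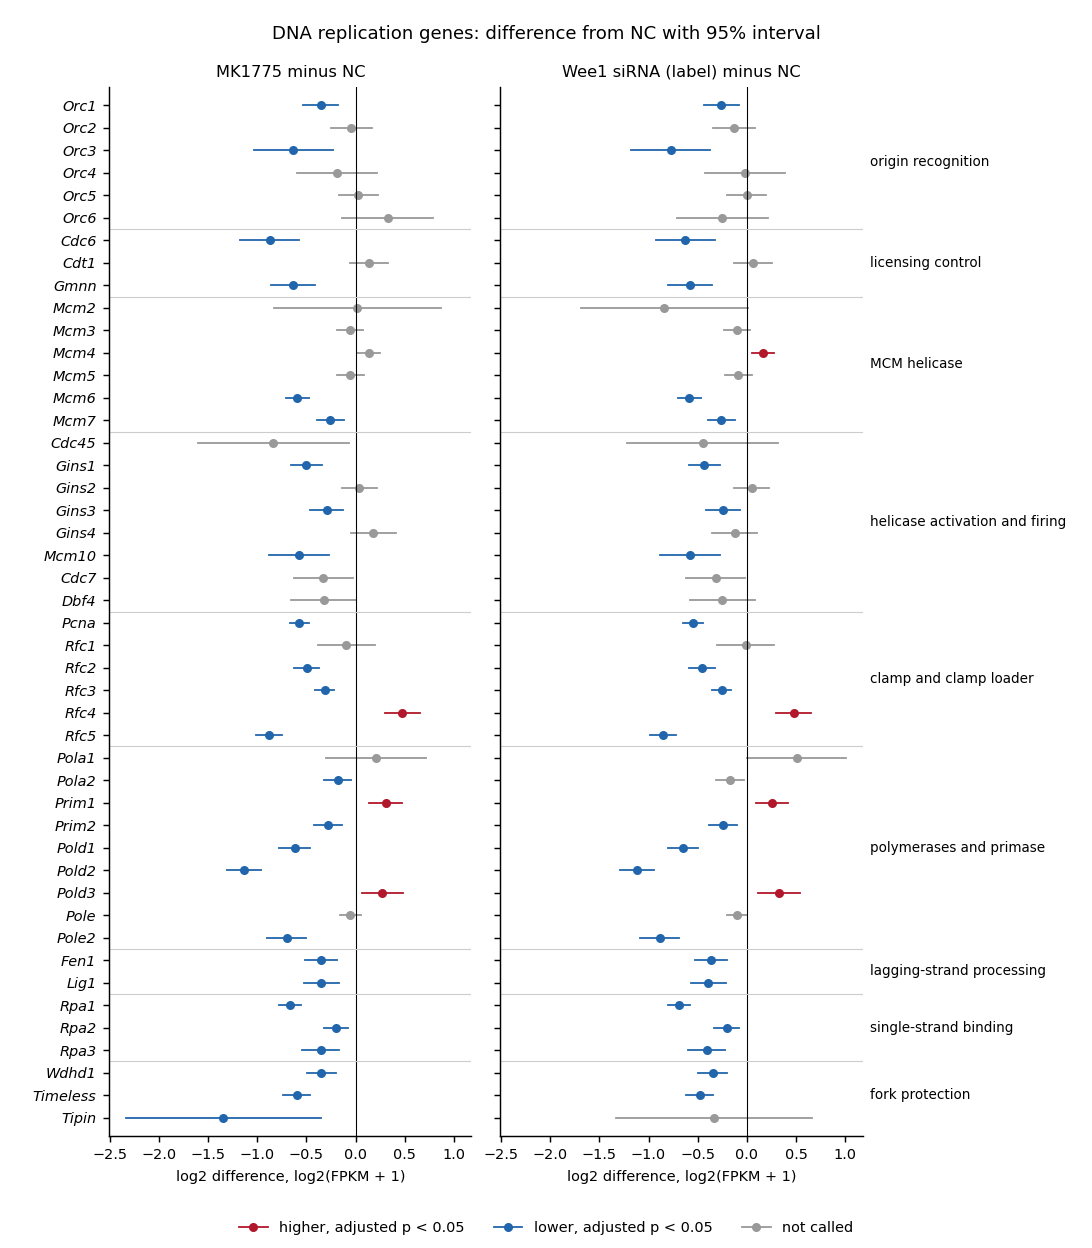
Difference from NC of each replication gene on the log2(FPKM + 1) scale (horizontal axis) with its 95% interval, for MK1775 (left) and the libraries labelled Wee1 siRNA (right), genes grouped by role. Blue points were called lower, red points higher and grey points were not called. The lowest steady values are those of Pold2 at -1.13 and -1.11, and wide bars are seen for Tipin, Mcm2 and Cdc45, whose FPKM was split unevenly between named and unnamed transcripts.

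Because many of these genes are E2F targets, the letters of their promoters were searched for the E2F forms TTTGGCGC, TTTCCCGC, TTTGCCGC and TTTCGCGC on both strands. RefSeq promoter windows (GRCm38.p6, 250 bases before to 50 after each start) were at hand for 37 of the 46 genes. A match stood in 15 of the 37 genes (40.5%), against 5.35% of 7910 genes tested that have a window. The letters CCAAT were found in 56.8% of the 37 genes and 43.7% of the genes tested, the cell cycle element forms TTTGAA or TTCGAA in 24.3% and 16.1%, and the GC box GGGCGG in 75.7% and 72.9%. The sequences below are the 160 bases before the start, with E2F matches in capitals (overlapping matches run together), for members that fell with a match, members with a match that were not called, and members that moved without a match. A match describes letters, not binding, and a missing match says nothing of the factor.
Mcm6 (chr1:128359706-128359865, minus strand, GRCm38.p6): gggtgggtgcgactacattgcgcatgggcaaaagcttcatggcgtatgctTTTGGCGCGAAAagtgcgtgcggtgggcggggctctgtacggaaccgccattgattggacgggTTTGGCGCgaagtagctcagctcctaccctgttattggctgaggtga
Orc1 (chr4:108579294-108579453, plus strand, GRCm38.p6): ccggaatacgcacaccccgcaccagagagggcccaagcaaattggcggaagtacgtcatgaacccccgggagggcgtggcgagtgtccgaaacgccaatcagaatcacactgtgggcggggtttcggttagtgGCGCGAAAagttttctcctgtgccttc
Gins3 (chr8:95633399-95633558, plus strand, GRCm38.p6): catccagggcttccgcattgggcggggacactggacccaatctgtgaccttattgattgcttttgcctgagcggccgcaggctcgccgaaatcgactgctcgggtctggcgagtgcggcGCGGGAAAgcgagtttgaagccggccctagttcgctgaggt
Cdc6 (chr11:98907991-98908150, plus strand, GRCm38.p6): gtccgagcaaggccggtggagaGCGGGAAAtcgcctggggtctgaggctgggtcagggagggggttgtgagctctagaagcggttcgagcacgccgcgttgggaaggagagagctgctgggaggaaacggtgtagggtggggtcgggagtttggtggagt
Mcm5 (chr8:75109349-75109508, plus strand, GRCm38.p6): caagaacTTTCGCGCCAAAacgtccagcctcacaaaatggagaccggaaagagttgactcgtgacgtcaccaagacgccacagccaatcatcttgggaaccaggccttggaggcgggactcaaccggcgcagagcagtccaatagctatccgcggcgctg
Pola1 (chrX:93632156-93632315, minus strand, GRCm38.p6): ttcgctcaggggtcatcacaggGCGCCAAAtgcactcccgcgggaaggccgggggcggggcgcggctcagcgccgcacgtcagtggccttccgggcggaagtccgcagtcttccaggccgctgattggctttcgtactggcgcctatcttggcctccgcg
Rfc5 (chr5:117389024-117389183, minus strand, GRCm38.p6): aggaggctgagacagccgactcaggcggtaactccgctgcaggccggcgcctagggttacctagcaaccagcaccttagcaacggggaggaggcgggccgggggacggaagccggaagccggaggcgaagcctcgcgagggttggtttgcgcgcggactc
Rfc4 (chr16:23127731-23127890, minus strand, GRCm38.p6): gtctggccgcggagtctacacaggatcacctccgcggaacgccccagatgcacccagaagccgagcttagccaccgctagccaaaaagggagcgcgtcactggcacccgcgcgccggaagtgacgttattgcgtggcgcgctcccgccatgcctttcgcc
Among those that fell with MK1775, Mcm6 holds 3 matches and Orc1, Gins3 and Cdc6 hold 1 each. Mcm5, with 2 matches, and Pola1, with 1, were not called with MK1775. Rfc5 fell and Rfc4 rose, both without a match in these bases. With MK1775, a match stood in 10 of the 21 members with a window that fell, in 1 of the 3 that rose (Pold3) and in 4 of the 13 that were not called. In the siRNA-labelled libraries, compared with the same NC libraries, it stood in 10 of 20 that fell, in 1 of 3 that rose (again Pold3) and in 4 of 14 that were not called. These counts are a description, and no test was made of them.

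Origin recognition genes were divided. The complex marks origins and stays bound for most of the cycle, while its largest subunit, Orc1, is the one whose level is known in human cells to change through the cycle. Orc1 was at 6.004, 5.90 and 5.38 FPKM with MK1775, 6.06, 5.74 and 6.89 FPKM in the siRNA-labelled libraries and 7.32, 7.64 and 7.99 FPKM in NC. All treated values lay below NC, and Orc1 fell by 0.36 with MK1775 (log2, SE 0.0779, adjusted p = 0.00735); in the siRNA-labelled libraries it fell by 0.26 (SE 0.0779, adjusted p = 0.0270). The second of these calls ended without siRNA-labelled replicate 1 (-0.25) or 2 (-0.21), or NC replicate 2 (-0.26) or 3 (-0.23). Orc3, a core subunit, was at 6.18, 5.76 and 6.24 FPKM with MK1775, 3.80, 6.91 and 5.91 FPKM in the siRNA-labelled libraries and 10.4, 8.69 and 10.9 FPKM in NC, again with no overlap. It fell by 0.63 (SE 0.174, adjusted p = 0.0200) and 0.78 (SE 0.174, adjusted p = 0.00795), the MK1775 call ending without MK1775 replicate 2 (-0.60) or NC replicate 1 (-0.61) or 3 (-0.57).

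The other core subunits Orc2, Orc4 and Orc5 were not called in either comparison, with log2 differences between -0.19 and 0.03 with MK1775 and between -0.13 and -0.00 in the siRNA-labelled libraries. Without NC replicate 2, Orc2 was called at -0.23 in the siRNA-labelled libraries. Orc6, the smallest subunit, depended on which transcripts carry its name. In named transcripts it was at 23.7, 19.8 and 17.0 FPKM with MK1775, 18.1, 10.6 and 11.7 FPKM in the siRNA-labelled libraries and 15.3, 14.3 and 18.0 FPKM in NC, with overlap and no call (0.32 and -0.25; adjusted p = 0.238 and 0.355). Without siRNA-labelled replicate 1 it was called at -0.47 there. With the unnamed transcripts of the same locus added (chr8:86026261-86034907, plus strand, GRCm39), it was at 38.6, 37.8 and 37.9 FPKM with MK1775, 34.0, 33.6 and 37.5 FPKM in the siRNA-labelled libraries and 31.4, 27.7 and 33.2 FPKM in NC. All treated values then lay above NC, and Orc6 was called higher by 0.30 (adjusted p = 0.00514) and 0.19 (adjusted p = 0.0463).

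Of the licensing control genes, Cdc6 and Gmnn fell and Cdt1 was not called. Cdc6 (chr11:98798627-98814766, plus strand, GRCm39), which recruits Cdt1 and the MCM ring, was at 12.2, 7.94 and 10.8 FPKM with MK1775, 12.3, 11.9 and 12.6 FPKM in the siRNA-labelled libraries and 18.3, 20.5 and 19.5 FPKM in NC. Every treated value lay below every NC value, and it fell by 0.87 with MK1775 (log2, SE 0.130, adjusted p = 0.00107); in the siRNA-labelled libraries it fell by 0.62 (SE 0.130, adjusted p = 0.00551). With unnamed transcripts added the libraries of each treated group drew closer together, at 12.9, 13.3 and 13.6 FPKM with MK1775, 13.3, 13.2 and 13.1 FPKM in the siRNA-labelled libraries and 19.6, 23.1 and 21.2 FPKM in NC, and the differences from NC were -0.64 and -0.65. Cdt1, the helicase loader that is destroyed in S phase, was at 46.9, 52.1 and 53.7 FPKM with MK1775, 50.2, 51.4 and 43.7 FPKM in the siRNA-labelled libraries and 43.5, 50.3 and 45.2 FPKM in NC. Its groups overlapped, with differences of 0.13 (95% interval -0.06 to 0.33, adjusted p = 0.248) and 0.06 (95% interval -0.13 to 0.26, adjusted p = 0.598). Gmnn, which encodes the inhibitor of Cdt1, was at 16.9, 17.9 and 15.7 FPKM with MK1775, 15.3, 19.6 and 17.7 FPKM in the siRNA-labelled libraries and 27.4, 24.4 and 28.4 FPKM in NC, with no overlap. It fell by 0.64 (SE 0.0972, adjusted p = 0.00124) and 0.58 (SE 0.0972, adjusted p = 0.00186). With the unnamed transcripts of its locus added, Gmnn was at 23.9, 24.4 and 22.0 FPKM with MK1775, 22.6, 25.7 and 27.3 FPKM in the siRNA-labelled libraries and 29.6, 25.6 and 30.0 FPKM in NC. The difference was then -0.26 with MK1775 (adjusted p = 0.0268) and no longer called at -0.17 in the siRNA-labelled libraries (adjusted p = 0.128).

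The 6 subunits of the MCM helicase, the ring that unwinds DNA, did not move together. Mcm6 (chr1:128259327-128287401, minus strand, GRCm39) was at 81.0, 76.5 and 76.4 FPKM with MK1775, 78.8, 77.6 and 78.8 FPKM in the siRNA-labelled libraries and 110.1, 125 and 120.1 FPKM in NC. The treated groups sat together well below NC, and Mcm6 fell by 0.59 (log2, SE 0.0515, adjusted p = 7.72e-05) and 0.59 (SE 0.0515, adjusted p = 7.94e-05), a level 1.52 times and 1.51 times lower than in NC. Mcm7 fell less, by 0.26 and 0.26 (adjusted p = 0.00944 and 0.00839), and its locus also holds the microRNA genes Mir106b, Mir25 and Mir93. Mcm3 was at 116, 117 and 119 FPKM with MK1775, 120.2, 112 and 110.1 FPKM in the siRNA-labelled libraries and 115, 132 and 121 FPKM in NC. Mcm5 was at 94.6, 101 and 104 FPKM with MK1775, 97.0, 94.8 and 101 FPKM in the siRNA-labelled libraries and 97.4, 111 and 103 FPKM in NC. In both genes the groups overlapped and no difference was called. The Mcm3 differences were -0.06 (95% interval -0.19 to 0.07) and -0.10 (95% interval -0.23 to 0.03), and those of Mcm5 were -0.05 (95% interval -0.19 to 0.08) and -0.09 (95% interval -0.22 to 0.05). These intervals do not reach the differences measured for Mcm6.

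Mcm4 leaned the other way, at 54.4, 50.7 and 54.3 FPKM with MK1775, 52.7, 55.2 and 54.7 FPKM in the siRNA-labelled libraries and 49.8, 49.6 and 45.97 FPKM in NC. All treated values lay above NC, with 0.13 for MK1775 (adjusted p = 0.0650, not called) and 0.16 for the siRNA-labelled libraries (adjusted p = 0.0297, called). Without MK1775 replicate 2 the MK1775 difference was called at 0.16, and the siRNA-labelled call ended without NC replicate 3 (0.12) or siRNA-labelled replicate 2 (0.15) or 3 (0.15). It also ended with median-of-ratios scaling (0.12), with only the 2 groups compared in the fit (adjusted p = 0.0540) and with unnamed transcripts (0.12). Mcm2 (chr6:88860456-88875762, minus strand, GRCm39) was at 58.8, 61.1 and 62.0 FPKM with MK1775, 16.2, 55.1 and 40.1 FPKM in the siRNA-labelled libraries and 60.7, 65.1 and 54.5 FPKM in NC in its named transcripts, so that siRNA-labelled replicates 1 and 3 stood below all other libraries. The difference of -0.84 (adjusted p = 0.102) was not called, and without siRNA-labelled replicate 2 it was called at -1.20. With unnamed transcripts of the locus added, the siRNA-labelled libraries stood at 60.5, 58.9 and 59.8 FPKM, against 62.1, 67.7 and 63.3 FPKM in NC, and the difference was -0.11 (95% interval -0.20 to -0.01, adjusted p = 0.0641). In the library with the low named value, most of the FPKM of the locus was thus listed under unnamed transcripts.

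**Figure D3:**
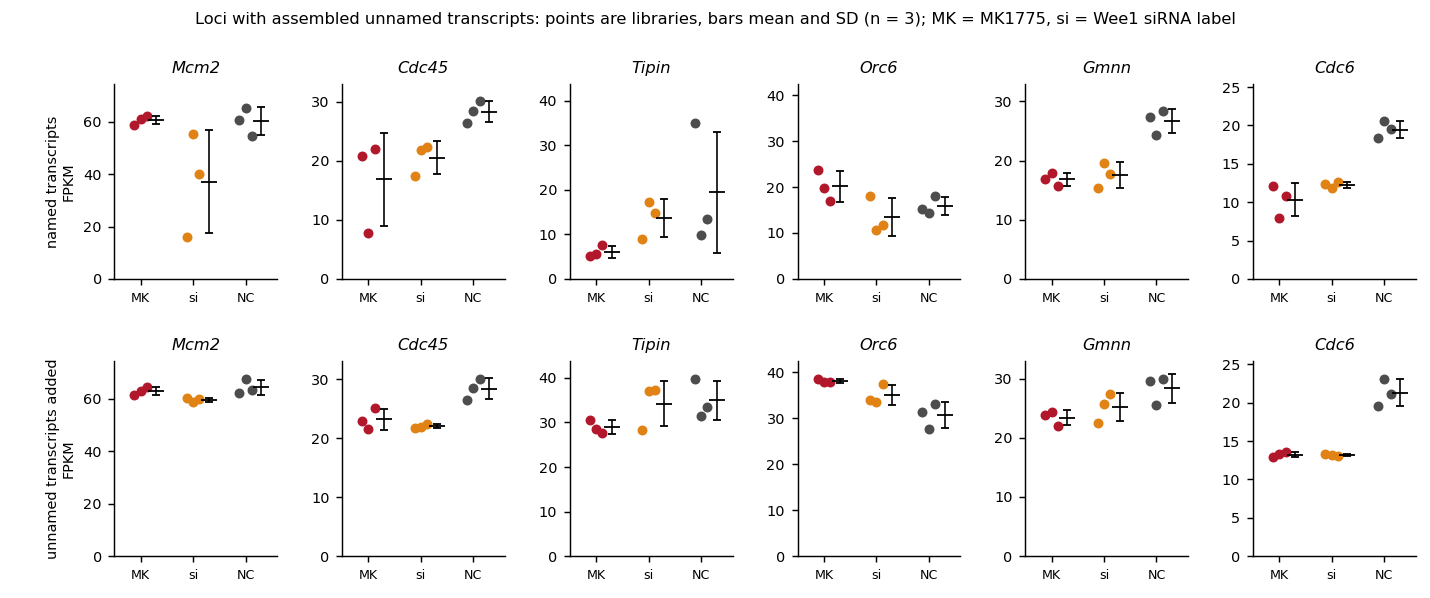
FPKM per library (points) with mean and SD (bars, n = 3) for 6 loci that hold assembled transcripts without a gene name, for MK1775 (MK), the libraries labelled Wee1 siRNA (si) and NC. The top row uses named transcripts and the bottom row adds the unnamed ones: the low Mcm2 value of 16.2 in a siRNA-labelled library, the low Cdc45 value of 7.80 with MK1775 and the high Tipin value of 35.1 in NC come close to their groups in the bottom row.

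The genes that turn the loaded ring into a moving helicase showed both falls and overlapping values. Mcm10, which joins at origin firing, was at 13.9, 15.6 and 11.8 FPKM with MK1775, 13.6, 15.1 and 12.4 FPKM in the siRNA-labelled libraries and 22.1, 23.4 and 17.6 FPKM in NC. No treated value reached NC, and Mcm10 fell by 0.57 (log2, SE 0.131, adjusted p = 0.00920) and 0.58 (SE 0.131, adjusted p = 0.00833). GINS, a complex of 4 proteins that binds Cdc45 and the MCM ring, split into falls of Gins1 and Gins3 and no call for Gins2 and Gins4. Gins1 was at 12.8, 11.6 and 13.2 FPKM with MK1775, 13.2, 13.6 and 12.8 FPKM in the siRNA-labelled libraries and 18.1, 16.9 and 19.5 FPKM in NC, and fell by 0.50 (SE 0.0695, adjusted p = 0.000781) and 0.43 (SE 0.0695, adjusted p = 0.00155). Gins3 fell by 0.30 (adjusted p = 0.0136) and 0.24 (adjusted p = 0.0299). Its MK1775 call ended without MK1775 replicate 2 (-0.25), and its siRNA-labelled call ended without NC replicate 1 (-0.24) or 3 (-0.23) and without siRNA-labelled replicate 1 (-0.21) or 2 (-0.22). Gins2 was at 7.97, 8.25 and 8.42 FPKM with MK1775, 8.86, 7.96 and 8.09 FPKM in the siRNA-labelled libraries and 7.14, 8.44 and 8.45 FPKM in NC, with overlap and differences of 0.04 (95% interval -0.14 to 0.21) and 0.05 (95% interval -0.13 to 0.22). Gins4 was at 0.18 and -0.13, not called, with the siRNA-labelled difference called at -0.24 without siRNA-labelled replicate 2. The Gins4 locus also holds Gpat4.

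Cdc45 (chr16:18599197-18630737, minus strand, GRCm39), which travels with the helicase, was at 20.8, 7.80 and 21.9 FPKM with MK1775, 17.4, 21.9 and 22.4 FPKM in the siRNA-labelled libraries and 26.5, 28.5 and 30.1 FPKM in NC. All treated values lay below NC, but MK1775 replicate 2 stood far below its group, and neither difference was called (-0.84 and -0.45; adjusted p = 0.0779 and 0.314). Without MK1775 replicate 2 both were called, at -0.39 and -0.45, and without MK1775 replicate 3 the MK1775 difference was called at -1.08. With unnamed transcripts added, Cdc45 was at 22.8, 21.6 and 25.2 FPKM with MK1775, 21.7, 21.9 and 22.4 FPKM in the siRNA-labelled libraries and 26.5, 28.5 and 30.1 FPKM in NC, and was called lower, at -0.28 (adjusted p = 0.00573) and -0.35 (adjusted p = 0.00165). The kinase Cdc7 and its activator Dbf4 were not called in the main fit. Cdc7 was at 6.51, 5.998 and 5.77 FPKM with MK1775, 5.21, 5.81 and 7.57 FPKM in the siRNA-labelled libraries and 8.69, 6.82 and 8.28 FPKM in NC, with differences of -0.33 (adjusted p = 0.0810) and -0.32 (adjusted p = 0.0857). Dbf4 was at 25.5, 24.1 and 21.1 FPKM with MK1775, 20.5, 24.1 and 31.1 FPKM in the siRNA-labelled libraries and 31.4, 27.0 and 31.1 FPKM in NC, with -0.33 (adjusted p = 0.107) and -0.25 (adjusted p = 0.199). All MK1775 values of both genes lay below NC, while siRNA-labelled replicate 3 lay within the NC range. Leaving that library out gave calls for Cdc7 (-0.33 and -0.45) and Dbf4 (-0.33 and -0.41) in both comparisons, and leaving out NC replicate 2 gave one for Cdc7 with MK1775 (-0.42). With only the 2 groups compared in the limma fit, both were called with MK1775 (adjusted p = 0.0437 for Cdc7 and 0.0345 for Dbf4). Dbf4 was also called with MK1775 when unnamed transcripts were added (-0.35, adjusted p = 0.0393). Median-of-ratios scaling gave a call for Cdc7 in the siRNA-labelled libraries (-0.35, adjusted p = 0.0406).

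The clamp and its loader held some of the clearest differences. Pcna (chr2:132091082-132095234, minus strand, GRCm39), the sliding clamp that tethers polymerases to DNA, had the highest level of the 46 genes. It was at 167, 169.7 and 159.6 FPKM with MK1775, 163, 167 and 176 FPKM in the siRNA-labelled libraries and 243, 242 and 255 FPKM in NC. The gap between the treated libraries and NC was far wider than the spread within groups, and Pcna fell by 0.57 (log2, SE 0.0439, adjusted p = 4.23e-05) and 0.55 (SE 0.0439, adjusted p = 5.25e-05). A processed copy of the gene, Pcna-ps2, was listed at 0.450 to 3.87 FPKM over the 9 libraries, and how reads shared by both were assigned is not stated.

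The clamp loader is a ring of 5 subunits, of which Rfc1 is the large one, and its genes went in different directions. Rfc5 (chr5:117516168-117527112, minus strand, GRCm39) was at 19.0, 19.4 and 19.4 FPKM with MK1775, 20.3, 19.0 and 19.4 FPKM in the siRNA-labelled libraries and 33.7, 38.7 and 36.6 FPKM in NC. It fell by 0.88 (SE 0.0571, adjusted p = 1.72e-05) and 0.86 (SE 0.0571, adjusted p = 1.97e-05), to levels 1.89 times and 1.85 times lower than in NC. Rfc2 fell by 0.50 and 0.46 (adjusted p = 0.000270 and 0.000406), and Rfc3 by 0.32 and 0.26 (adjusted p = 0.000642 and 0.00171). Rfc4 (chr16:22932693-22946487, minus strand, GRCm39) rose instead. It was at 31.4, 30.1 and 30.8 FPKM with MK1775, 28.6, 31.8 and 32.0 FPKM in the siRNA-labelled libraries and 19.9, 21.6 and 24.2 FPKM in NC, with all treated values above NC, and rose by 0.47 (SE 0.0760, adjusted p = 0.00159) and 0.47 (SE 0.0760, adjusted p = 0.00152). In the deposited table the span of Rfc4 over all its named transcripts shares 194 bases with that of Eif4a2 (chr16:22926194-22932886, plus strand, GRCm39). Shared bases were measured between such spans, not between exons. Eif4a2, a translation initiation factor gene, was itself called higher by limma. It rose by 0.67 with MK1775 (adjusted p = 0.0151) and 0.73 in the siRNA-labelled libraries (adjusted p = 0.00972). Since counting by strand is not stated, reads of the pair cannot be told apart where they overlap. In all, 11 of the 46 genes overlap a tested gene on the opposite strand: Mcm7, Orc2, Orc4, Orc6, Gins2, Cdc45, Rfc2, Rfc4, Rfc5, Fen1 and Lig1. Longest were Orc2 with Nif3l1 (19046 bases), Gins2 with Gse1 (2758), Rfc2 with Lat2 (1784) and Lig1 with Zswim9 (1409). Nif3l1 fell by 0.39 and 0.33, Lat2 fell by 0.36 and 0.35, Gse1 rose by 1.26 and 1.23, and Zswim9 was not called. Of the partners of Mcm7, Ap4m1 rose by 0.61 and 0.73 and Cops6 fell by 0.33 and 0.31. Reads of these pairs, too, cannot be told apart where transcripts overlap. Rfc1 was not called, at -0.10 (95% interval -0.39 to 0.19) and -0.01 (95% interval -0.30 to 0.28).

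**Figure D4:**
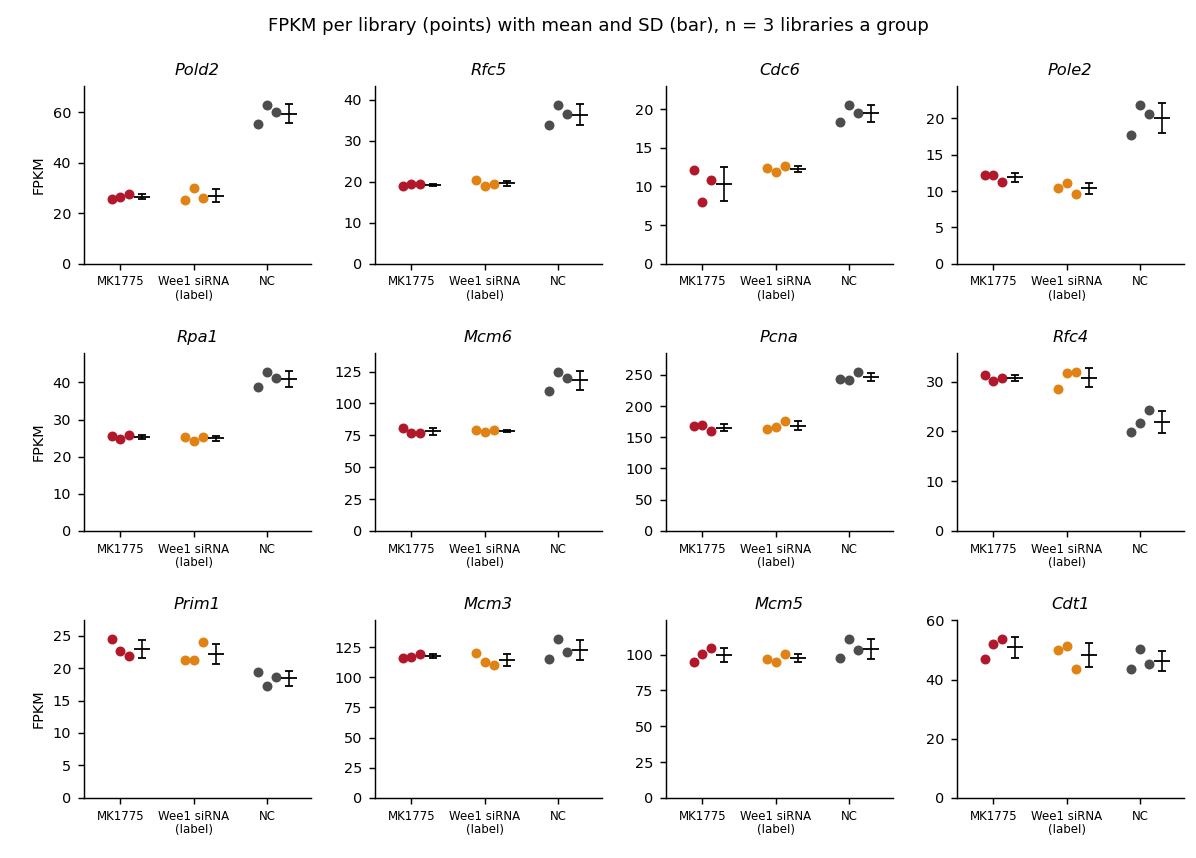
FPKM per library (points; vertical axis from 0) with mean and SD (bars, n = 3) for 12 replication genes with MK1775, in the libraries labelled Wee1 siRNA and in NC. From Pold2 to Pcna the treated libraries lie below NC without overlap, in Rfc4 and Prim1 they lie above it, and in Mcm3, Mcm5 and Cdt1 the groups overlap.

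Polymerase delta, which copies the lagging strand, held falls and a rise. Pold2 (chr11:5822180-5828292, minus strand, GRCm39), an accessory subunit, was at 25.7, 26.4 and 27.5 FPKM with MK1775, 25.1, 29.9 and 25.9 FPKM in the siRNA-labelled libraries and 55.5, 62.9 and 59.9 FPKM in NC. It fell by 1.13 (log2, SE 0.0747, adjusted p = 1.90e-05) and 1.11 (SE 0.0747, adjusted p = 2.04e-05), to levels 2.24 times and 2.20 times lower than in NC. Pold1, the catalytic subunit, was at 16.0, 16.6 and 18.5 FPKM with MK1775, 17.1, 16.9 and 15.9 FPKM in the siRNA-labelled libraries and 25.5, 28.3 and 26.3 FPKM in NC. No treated value reached NC, and Pold1 fell by 0.62 and 0.65 (adjusted p = 0.000218 and 0.000167), both calls ending with the most abundant transcript in place of the sum (-0.31 and -0.33). Pold3, another accessory subunit, was at 12.8, 15.0 and 12.0 FPKM with MK1775, 13.1, 13.0 and 15.2 FPKM in the siRNA-labelled libraries and 10.4, 10.987 and 10.9 FPKM in NC. It rose by 0.27 (adjusted p = 0.0453) and 0.32 (adjusted p = 0.0216), with all treated values above NC.

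The Pold3 calls depended on single libraries and on the settings. With MK1775 the call ended without MK1775 replicate 1 (0.29) or 2 (0.19), without siRNA-labelled replicate 1 or 2 (0.27 for each), and without NC replicate 1 (0.25), 2 (0.28) or 3 (0.28). It also ended with no filter on low values (adjusted p = 0.0835), with only the 2 groups compared in the fit (adjusted p = 0.0530) and with the most abundant transcript (adjusted p = 0.104). In the siRNA-labelled libraries it ended with the most abundant transcript (adjusted p = 0.0630), and without NC replicate 1 (0.30) or 3 (0.33) or siRNA-labelled replicate 3 (0.25).

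Polymerase epsilon, which copies the leading strand, also differed between its subunits. Pole2, its second subunit, was at 12.3, 12.2 and 11.2 FPKM with MK1775, 10.4, 11.1 and 9.65 FPKM in the siRNA-labelled libraries and 17.8, 21.9 and 20.6 FPKM in NC, and its locus holds 4 other named genes. With no overlap between treated and NC libraries, it fell by 0.70 (SE 0.0859, adjusted p = 0.000406) and 0.89 (SE 0.0859, adjusted p = 0.000122). Pole, the catalytic subunit, was at 12.1, 12.6 and 12.6 FPKM with MK1775, 11.8, 11.9 and 12.2 FPKM in the siRNA-labelled libraries and 13.0, 12.7 and 13.1 FPKM in NC. Every treated value lay below every NC value, but neither difference was called, at -0.05 (95% interval -0.16 to 0.05) and -0.10 (95% interval -0.20 to 0.00).

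Polymerase alpha and primase start each new strand with a short RNA and DNA primer. The primase subunit Prim1 was at 24.5, 22.6 and 21.8 FPKM with MK1775, 21.2, 21.3 and 24.0 FPKM in the siRNA-labelled libraries and 19.4, 17.2 and 18.6 FPKM in NC, with all treated values above NC. It rose by 0.30 (log2, SE 0.0716, adjusted p = 0.0104) and 0.26 (SE 0.0716, adjusted p = 0.0211), and the siRNA-labelled call ended without NC replicate 2 (0.21) or 3 (0.26) or siRNA-labelled replicate 3 (0.20). Its partner Prim2 fell, by 0.28 (adjusted p = 0.00826) and 0.24 (adjusted p = 0.0144). Pola1, the catalytic subunit of polymerase alpha, was at 6.40, 6.25 and 6.83 FPKM with MK1775, 5.88, 8.68 and 10.7 FPKM in the siRNA-labelled libraries and 7.28, 4.15 and 5.41 FPKM in NC. Its groups overlapped, with 0.21 (95% interval -0.30 to 0.71) and 0.50 (95% interval 0.00 to 1.01), neither called, although the siRNA-labelled difference was called at 0.68 without NC replicate 1 and at 0.71 without siRNA-labelled replicate 1. Pola2, the second subunit, fell by 0.18 with MK1775 (adjusted p = 0.0425) and was at -0.17 in the siRNA-labelled libraries (adjusted p = 0.0526). The MK1775 call ended when any single MK1775 or NC library, or siRNA-labelled replicate 3, was left out (-0.21 to -0.14), and it turned to 0.05 with the most abundant transcript alone. In the siRNA-labelled libraries Pola2 was called at -0.22 without siRNA-labelled replicate 2.

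Both genes of lagging-strand processing fell. Fen1, the nuclease that trims the flaps between Okazaki fragments, was at 24.2, 24.5 and 25.9 FPKM with MK1775, 24.7, 24.8 and 24.5 FPKM in the siRNA-labelled libraries and 28.8, 35.2 and 32.6 FPKM in NC. Lig1, the ligase that joins the fragments, was at 30.2, 32.3 and 27.3 FPKM with MK1775, 26.5, 31.0 and 29.6 FPKM in the siRNA-labelled libraries and 37.0, 39.8 and 38.3 FPKM in NC. In both genes every treated value lay below every NC value. Fen1 fell by 0.36 (log2, SE 0.0704, adjusted p = 0.00446) and 0.37 (SE 0.0704, adjusted p = 0.00364), and Lig1 by 0.35 (SE 0.0776, adjusted p = 0.00781) and 0.39 (SE 0.0776, adjusted p = 0.00432). With the most abundant transcript in place of the sum, Fen1 was no longer called (-0.10 and -0.16), and neither was Lig1 with MK1775 (-0.28).

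The 3 subunits of replication protein A, which coats single-stranded DNA at the fork, fell in both groups. Rpa1, the large subunit, was at 25.7, 24.8 and 25.7 FPKM with MK1775, 25.2, 24.1 and 25.4 FPKM in the siRNA-labelled libraries and 38.7, 42.8 and 41.2 FPKM in NC. It fell by 0.67 (log2, SE 0.0494, adjusted p = 3.48e-05) and 0.69 (SE 0.0494, adjusted p = 2.74e-05), and every treated value lay below every NC value. Rpa3, the small subunit, fell by 0.36 and 0.41 (adjusted p = 0.00976 and 0.00479), and Rpa2, the middle one, by 0.20 and 0.21 (adjusted p = 0.0181 and 0.0144). The Rpa2 call with MK1775 ended without MK1775 replicate 3 (-0.17) and with quantile normalization (-0.13).

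Of the fork protection genes, Timeless and Wdhd1 fell in both groups. Timeless, which with Tipin keeps the helicase and polymerases coupled, was at 6.77, 6.33 and 7.03 FPKM with MK1775, 7.65, 7.39 and 7.12 FPKM in the siRNA-labelled libraries and 10.3, 10.9 and 10.8 FPKM in NC. The groups of treated and NC libraries did not overlap, and Timeless fell by 0.60 (log2, SE 0.0593, adjusted p = 0.000139) and 0.48 (SE 0.0593, adjusted p = 0.000409), with both calls ending on the most abundant transcript alone (-0.48 and -0.43). Wdhd1, which links polymerase alpha to the helicase, was at 14.2, 13.0 and 12.5 FPKM with MK1775, 13.4, 13.0 and 13.2 FPKM in the siRNA-labelled libraries and 18.3, 16.3 and 16.7 FPKM in NC. It fell by 0.35 (SE 0.0640, adjusted p = 0.00314) and 0.35 (SE 0.0640, adjusted p = 0.00306). Tipin (chr9:64188863-64213150, plus strand, GRCm39) was at 5.13, 5.56 and 7.69 FPKM with MK1775, 8.86, 17.3 and 14.9 FPKM in the siRNA-labelled libraries and 35.1, 9.89 and 13.6 FPKM in NC, so that 1 NC library stood far above the others. The MK1775 difference of -1.34 (SE 0.431, adjusted p = 0.0374) was called, and that of the siRNA-labelled libraries was not (-0.33, adjusted p = 0.573).

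The Tipin call did not hold when its locus was counted whole. With unnamed transcripts added Tipin was at 30.6, 28.6 and 27.7 FPKM with MK1775, 28.3, 37.0 and 37.3 FPKM in the siRNA-labelled libraries and 39.8, 31.6 and 33.6 FPKM in NC, and the MK1775 difference was -0.26 (adjusted p = 0.0902). Without NC replicate 1 the difference in named transcripts was -0.84, and the call also ended without NC replicate 3 (-1.49), MK1775 replicate 1 (-1.24), 2 (-1.29) or 3 (-1.49), or siRNA-labelled replicate 3 (-1.34).

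MK1775 was also set against the libraries labelled Wee1 siRNA directly. None of the 46 genes was called, where 1 of the 10453 genes tested was (0.00957%), and the smallest adjusted p among the 46 was 0.712 by limma. Without adjustment 4 of the 46 genes were under 0.05 (Mcm2, Orc6, Gins4 and Tipin), against 5.89% of all genes tested. The median log2 difference was -0.01 over the 46 genes and -0.01 over all genes tested. In 3 genes all MK1775 values lay above all siRNA-labelled values, against 5.08% of all genes tested, and in 2 all lay below, against 6.78%. A p above the threshold does not show that the groups are alike, so the intervals matter here. In 41 of the 46 genes the 95% interval stayed within a 1.5-fold difference in either direction on the log2(FPKM + 1) scale, and in Mcm2, Orc6, Cdc45, Pola1 and Tipin it reached past it. For Pcna the interval was -0.13 to 0.08, for Mcm6 -0.13 to 0.11, for Pold2 -0.19 to 0.15 and for Rfc5 -0.16 to 0.11. Gins4 was at 24.2, 22.4 and 24.4 FPKM with MK1775 and 17.9, 22.3 and 17.1 FPKM in the siRNA-labelled libraries, a difference of 0.30 (95% interval 0.07 to 0.53, adjusted p = 0.712). With unnamed transcripts added, the Mcm2 difference was 0.08 (95% interval -0.02 to 0.17) in place of 0.85 (95% interval 0.01 to 1.70), and that of Tipin was -0.22 in place of -1.01.

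Other genes of the same process were read from a pair of textbook lists. Of 20 further licensing and firing genes 16 were tested, and with MK1775 1 rose and 2 fell (median -0.03), where 17.9% of all genes tested rose and 23.1% fell. In the siRNA-labelled libraries none rose and 3 fell (median 0.01), where 19.6% of all genes tested rose and 23.2% fell. The counts of this list are thus no higher than those shares. Skp2, a substrate receptor of the ubiquitin ligase that marks Cdt1 and the inhibitor p27, was at 14.1, 13.7 and 12.5 FPKM with MK1775, 13.7, 13.9 and 15.0 FPKM in the siRNA-labelled libraries and 34.2, 31.8 and 32.0 FPKM in NC. It fell by 1.22 (SE 0.0624, adjusted p = 5.26e-06) and 1.15 (SE 0.0624, adjusted p = 7.24e-06), with no overlap between treated and NC libraries. Recql4, a helicase needed at origins, fell by 0.49 and 0.32 (adjusted p = 0.000855 and 0.00692). Mcm8, of a helicase that acts in recombination, rose by 0.35 with MK1775 (adjusted p = 0.0143), and Kmt5a, a histone methyltransferase, fell by 0.19 in the siRNA-labelled libraries (adjusted p = 0.0108). With the most abundant transcript alone, neither call remained (0.17 for Mcm8 and -0.69 for Kmt5a). Single libraries also decided further calls. In the siRNA-labelled libraries Mcm8 was called at 0.30 without NC replicate 3 and at 0.30 without siRNA-labelled replicate 1. With MK1775 Kmt5a was called at -0.15 without MK1775 replicate 3.

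Of 25 further fork, clamp and lagging-strand genes 24 were matched by name and tested. With MK1775 1 rose and 8 fell (median -0.00), and in the siRNA-labelled libraries 3 rose and 7 fell (median 0.07). Over all genes tested, 17.9% rose and 23.1% fell with MK1775, and 19.6% rose and 23.2% fell in the siRNA-labelled libraries. Dna2, a nuclease and helicase that cuts long flaps, was at 2.73, 2.50 and 2.54 FPKM with MK1775, 3.17, 2.61 and 2.62 FPKM in the siRNA-labelled libraries and 7.91, 7.24 and 7.55 FPKM in NC. It fell by 1.26 (SE 0.0795, adjusted p = 1.54e-05) and 1.18 (SE 0.0795, adjusted p = 2.09e-05), with every treated value below every NC value. Pclaf, a PCNA-binding protein, was at 33.8, 34.5 and 33.5 FPKM with MK1775, 33.3, 33.8 and 37.0 FPKM in the siRNA-labelled libraries and 61.9, 51.5 and 57.1 FPKM in NC, below NC in every treated library, and fell by 0.72 and 0.69 (adjusted p = 0.000138 and 0.000165). Chtf18, of the alternative clamp loader, fell by 0.49 and 0.49 (adjusted p = 0.000227 and 0.000224), calls that ended with the most abundant transcript alone. The rises, named after their values were seen, were in the ubiquitin ligase gene Traip (0.51 and 0.56, adjusted p = 0.000646 and 0.000371) in both groups, and in the clamp unloader Atad5 (0.66, adjusted p = 0.0174) and the polymerase delta subunit Pold4 (0.30, adjusted p = 0.0220) in the siRNA-labelled libraries. The Atad5 call ended without NC replicate 2 (0.51) or siRNA-labelled replicate 2 (0.63) or 3 (0.55), while with MK1775 Atad5 was called at 0.53 without NC replicate 1. The Pold4 call ended without NC replicate 1 (0.25) or siRNA-labelled replicate 2 (0.30) or 3 (0.24). Between MK1775 and the siRNA-labelled libraries no gene of either list was called by limma, the smallest adjusted p being 0.663 (Kat7) among the licensing and firing genes and 0.852 (Rnaseh2a) among the others.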

How the data were processed

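Values are FPKM per transcript as the authors deposited them in 1 table of 158719 transcripts. FastQC, Trim Galore, HISAT2, StringTie and the GRCm39 build are named, without versions or parameters, per the submitters' processing notes. Per the labels' protocols, total RNA went into NEBNext Ultra libraries, and strand handling is not given in the sources used here. FPKM was summed per gene name over named transcripts, leaving out 19 names found on more than 1 chromosome. The libraries summed to between 321551 and 332950 FPKM, and each listed between 10017 and 10783 named genes at or above 1 FPKM. Transcripts without a name took 12.1 to 12.6% of FPKM with MK1775, 12.3 to 12.8% in the libraries labelled Wee1 siRNA and 10.0 to 11.2% in NC. An alternative adds 9580 of the 17991 unnamed transcripts, those at loci that hold exactly 1 named gene. It could not change the FPKM of Mcm7, Orc5, Gins4, Pold1 and Pole2, whose loci hold other named genes. The table holds 0 columns of other samples.

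Tests ran on log2(FPKM + 1) for genes whose mean over the 9 libraries was 1 FPKM or higher, with limma 3.58.1 (R 4.3.3; empirical Bayes with trend, all groups in 1 fit, Benjamini-Hochberg over all genes tested, threshold 0.05), after the code was tested on simulated data. Fold changes are on the log2(FPKM + 1) scale, which understates changes of low genes. Values per library are given for the 6 largest called rises and falls per comparison, for members that stand apart within a complex and for a fixed set of key members. From the pair of lists of other replication genes, every gene called against NC was named, except among the falls of the fork, clamp and lagging-strand genes. Of those falls, the 3 with the smallest adjusted p-values were named. Between MK1775 and the siRNA-labelled libraries, the gene with the smallest adjusted p of each list was named. The members and lists were chosen with earlier results of these data known. The 18 alternatives cover the pseudocount, the filter, scaling, the replicate block, the groups in the fit, the transcripts counted and each library left out. No pairing of libraries by replicate number was seen, and none was used in the main fit. Python 3.11.15 with pandas 2.3.3 and matplotlib 3.10.9 was used for tables and figures.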

Additional observations from a re-analysis of the deposited data

How the results depend on the processing

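Over the 18 alternatives, 17 of the 26 falls and 2 of the 3 rises among the replication genes with MK1775 kept their call throughout, as did 18 of the 24 falls and 1 of the 4 rises (Rfc4) in the libraries labelled Wee1 siRNA. With each library left out in turn, the replication genes gave 23 to 26 falls and 2 to 3 rises with MK1775, and 22 to 26 falls and 1 to 5 rises in the siRNA-labelled libraries. Over all genes tested the same gave 1972 to 2440 falls and 1572 to 1908 rises with MK1775, 2005 to 2332 falls and 1728 to 2013 rises in the siRNA-labelled libraries, and 0 to 2 falls and 0 to 1 rises between these groups. With a minimum of 5 FPKM, 6537 genes were tested, with 1222 rises for MK1775 and 1296 for the siRNA label. Without a filter, 28692 genes were tested, with 2907 and 3558 rises. The falls were then 2168 and 2249, against 2411 and 2426 with the main filter. The cause was not tested. Between MK1775 and the siRNA-labelled libraries, all genes gave 6 rises and 5 falls without a filter, 0 rises and 1 fall with only those groups in the fit, 0 rises with the replicate block and 1 fall with the most abundant transcript, causes not tested. With the replicate block the replication genes gave 24 falls and 2 rises with MK1775 and 23 falls and 3 rises in the siRNA-labelled libraries; the calls that ended were those of Pold3, Pola2 and Tipin with MK1775 (adjusted p = 0.080, 0.0718 and 0.0764) and of Mcm4 and Orc1 for the siRNA label (adjusted p = 0.0695 and 0.0600). No pairing by number was seen: 0 of 9 pairs of same-numbered libraries correlated above 0.1 in their deviations (-0.12 to 0.04). Only 1 of 9 libraries correlated best with its own number. This does not show that the numbers are unpaired, and the labels do not say. With the most abundant transcript alone there were 18 falls and 2 rises with MK1775, and 20 falls and 3 rises in the siRNA-labelled libraries: this ended calls of Fen1 (-0.10 and -0.16), Pold1 (-0.31 and -0.33), Pold3 (0.26 and 0.30) and Timeless (-0.48 and -0.43) in both comparisons, of Lig1 (-0.28), Orc3 (-0.46), Pola2, Rpa2 (-0.18) and Tipin (-1.86) with MK1775 and of Gins3 (-0.23) for the siRNA label. Several of these differences stayed about as large as over all named transcripts, and that of Tipin was larger, so a lost call does not show that a difference went away. Signs turned for Orc6 in the siRNA-labelled libraries with unnamed transcripts (0.19), for Pola2 with MK1775 (0.054) and for Chtf18 in the siRNA-labelled libraries (0.023), the last pair with the most abundant transcript; the cause was not tested. No scaling moved the median of all genes by 0.1 or more. The depth is unknown, so counting error could not be separated from the spread between libraries.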

Other observations

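The division of FPKM between transcripts of 1 gene varied between replicates. For Cdc45, a helicase component, the transcripts ENSMUST00000000028 and ENSMUST00000096990 had 11.6 and 9.08 FPKM in MK1775 replicate 1, 6.58 and 1.17 FPKM in replicate 2, and 0 and 20.8 FPKM in replicate 3. In the libraries labelled Wee1 siRNA they had 12.4 and 4.95, 9.37 and 12.5, and 22.0 and 0.352 FPKM, and in NC 5.31 and 20.5, 16.9 and 11.6, and 5.77 and 23.7 FPKM. The leading transcript thus changed within every group.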
